A study of Mus musculus with 8 samples.

Results

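Calcium transport into milk was followed through 10 genes: the calcium pumps Atp2b1, Atp2b2, Atp2c1, Atp2c2 and Atp2a2, the store-operated entry genes Orai1, Stim1 and Stim2, the calcium-sensing receptor gene Casr and Pthlh, which encodes parathyroid hormone-related protein (PTHrP). They were chosen by name among 18749 genes with a probe, from knowledge of the pathway and with earlier results of these data known. Of the 10, 9 were measured well enough to be tested among 14166 genes. The RNA came from No. 4 mammary glands of dams of the C57/Bl6 strain at lactation day 1, from 4 wild-type (WT) and 4 Th-POK-deficient (KO) dams. KO dams lack Th-POK, the transcription factor encoded by Zbtb7b, in every cell type, including the CD4 T cells that need it to develop, and the labels name no treatment for either genotype. Each dam was measured on a one-colour Agilent array, on which the brightness of a probe, given here on the log2 scale, stands for the abundance of its RNA. A gland sample holds epithelium, fat, stroma, vessels and immune cells, so fewer cells of a type and less RNA per cell cannot be told apart.

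In lactation, the alveolar luminal cells move calcium from blood to milk against a steep gradient. Calcium enters from the blood side, in part through the channel ORAI1, which STIM1 and STIM2 open when the endoplasmic reticulum (ER) runs low. It is loaded into the ER by SERCA2 (Atp2a2) and into the Golgi by the secretory pathway pumps SPCA1 (Atp2c1) and SPCA2 (Atp2c2), the latter of which can also hold ORAI1 open, and there it is packed with casein. The plasma membrane pump PMCA2 (Atp2b2) sits in the apical membrane of lactating cells and exports calcium directly into milk, and mice without working PMCA2 make milk poor in calcium. PMCA1 (Atp2b1) is the general calcium exporter of most cells. The calcium-sensing receptor (Casr) reads blood calcium, raises calcium transport and restrains PTHrP, the hormone through which the gland draws calcium from the maternal skeleton.

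Zbtb7b gave log2 intensities of 9.90 to 10.42 on the WT arrays and 1.55 to 1.65 on the KO arrays, where it was not well above background, a decrease of at least 81.5-fold (adjusted p = 5.74e-09 from limma). The p-value rests on KO signals at background, so it is not a test of that bound. The share of probes that stood well above background ranged from 66.8% to 75.3% per array. With 4 dams per genotype, their number sets the precision, and each genotype had a slide to itself, so that genotype and slide cannot be told apart. The 12 luminal and alveolar markers were all well above background. Their summed linear signal, in which Wap and Csn2 weighed most, was 865066 to 911978 in the WT glands and 925746 to 967455 in the KO glands. Quantile normalization makes the brightest probes, these among them, nearly equal on every array, so this sum is in part set by it. Of the 12, 3 (Cldn3, Epcam and Krt18) passed the test as higher and 1 (Muc1) as lower. The summed signal of 6 neutrophil markers was 67281 to 100574 in the WT glands and 169248 to 270464 in the KO glands, but Ltf, which the epithelium also secretes into milk, made up 90.5% to 97.6% of it, and without Ltf the sum was 1608 to 7554 and 7705 to 18727. Of the 6, Ltf passed as higher, and Camp and Ngp passed too but were well above background on 0 of 4 WT arrays, so they entered only through the KO glands. S100a8, S100a9 and Mpo did not pass, and Elane and Cxcr2 were below background in both genotypes. For 9 adipocyte markers the sum, in which Cfd and Fabp4 weighed most, was 302446 to 426294 in the WT glands and 420306 to 599247 in the KO glands. In the KO glands 8 of the 9 had a higher mean and 1 a lower one, and 2 passed the test, both as higher. For 8 fibroblast markers it was 175701 to 221468 and 216690 to 321285. All 8 had a higher mean in the KO glands, and 1 of the 8 passed the test. Of the other lists, 1 of 10 basal and 2 of 8 T cell markers passed as lower and 1 of 6 B cell markers as higher. All 8 T cell markers had a lower mean in the KO glands. For the macrophage and endothelial markers 0 of 8 and 0 of 7 passed. Of all genes tested, 16.5% passed. The part of these markers in the results below was not tested.

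The KO glands had less RNA of Atp2b2, Pthlh and Orai1 and more RNA of Atp2b1. The RNAs of the apical exporter and of the general exporter thus differed in opposite directions in whole glands. Each of these calls was lost without KO array 3, and the signals of Pthlh overlapped between the genotypes. Of the 9 genes tested, 1 was higher and 3 were lower in the KO glands at an adjusted p under 0.05 (limma with Benjamini-Hochberg adjustment over all genes). Of all genes tested, 16.5% passed that test, 7.53% as higher and 8.96% as lower. The genes of the pathway were chosen with earlier results of these data known, so this is not a blind comparison. In 3 of the 9 the signals of the genotypes did not overlap (1 with KO above and 2 with KO below), against 24.1% of all genes (11.2% with KO above and 12.9% with KO below). The median difference, KO minus WT, was -0.49 over the 9 genes and -0.02 over all genes.

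**Figure D1:**
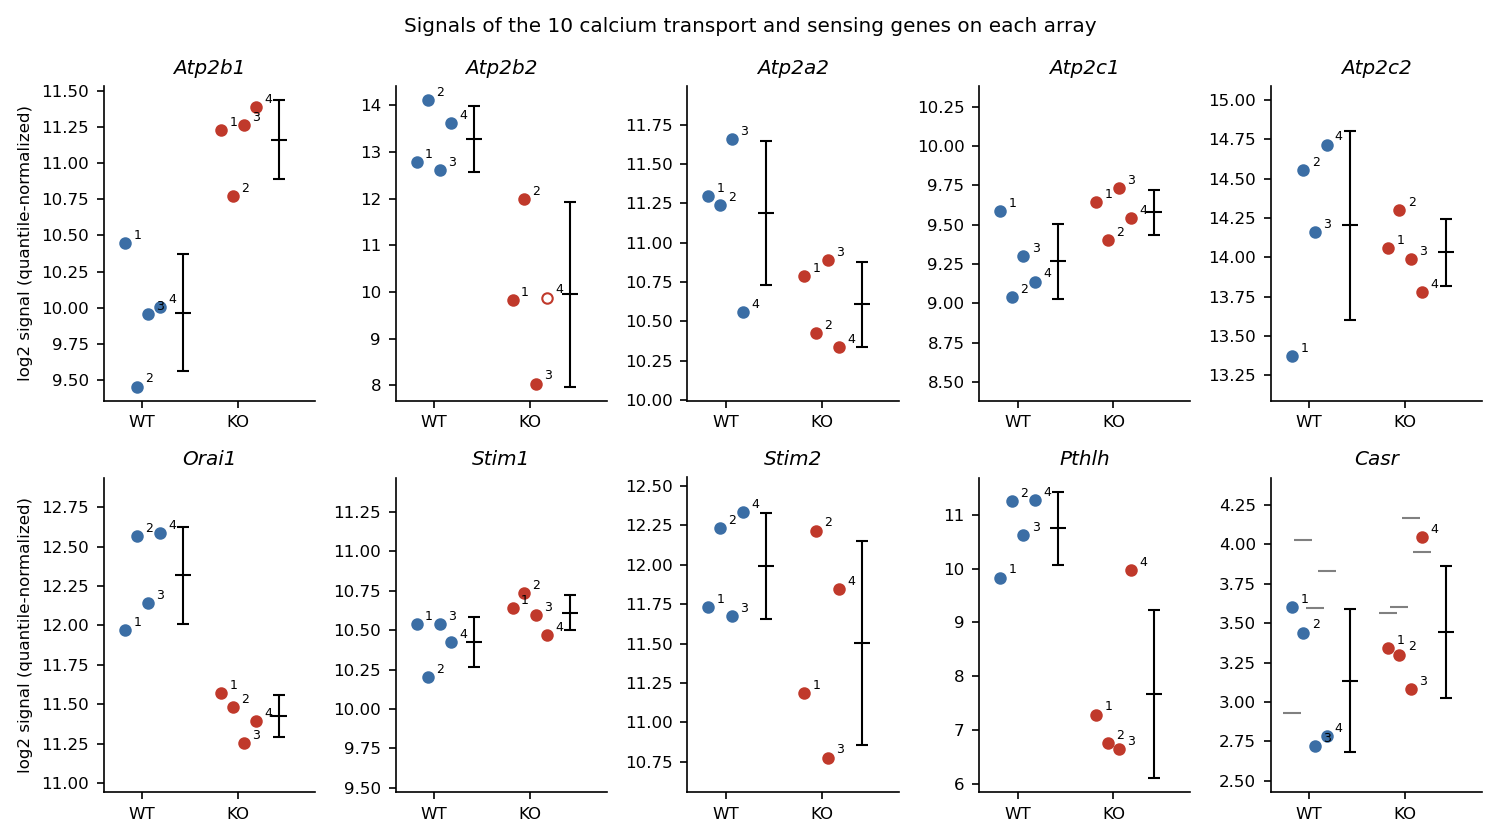
Log2 signal of each of the 10 genes on the 8 arrays (vertical axis), WT in one column and KO in the other, with a point for each dam marked by its array number and a bar for the mean and SD. Every KO point lies below every WT point for Atp2b2 and Orai1 and above for Atp2b1, while KO array 4 lies within the WT range for Pthlh, and each vertical axis has its own range. The open symbol of Atp2b2 is a spot marked as uneven, which was left out of the mean, and the short lines beside Casr are the lowest signal of any probe well above background on that array.

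The sequences just upstream of the start sites of the 4 genes that passed the test are shown so that a reader can see what these promoters hold. They come from the RefSeq table of mouse build GRCm38.p6, which had 12 windows for 8 of the 10 genes and none for Atp2a2 and Atp2c2, and each is 250 bases on the gene's own strand, ending at the base before an annotated start. Capitals mark GGGCGG (or CCGCCC on the other strand), the letters bound by factors of the Sp1 family, and TTCNNNGAA, the letters bound by STAT factors such as the prolactin-activated STAT5, with both strands searched. Which of several start sites these glands use cannot be read from the arrays.
Orai1, chr5:123014824-123015073, plus strand: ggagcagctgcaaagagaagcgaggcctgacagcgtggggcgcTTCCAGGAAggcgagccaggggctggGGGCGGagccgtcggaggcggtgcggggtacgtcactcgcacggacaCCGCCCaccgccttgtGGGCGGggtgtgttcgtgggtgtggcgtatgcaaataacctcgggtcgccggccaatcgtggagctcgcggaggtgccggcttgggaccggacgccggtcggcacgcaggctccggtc
Pthlh, chr6:147264014-147264263, minus strand: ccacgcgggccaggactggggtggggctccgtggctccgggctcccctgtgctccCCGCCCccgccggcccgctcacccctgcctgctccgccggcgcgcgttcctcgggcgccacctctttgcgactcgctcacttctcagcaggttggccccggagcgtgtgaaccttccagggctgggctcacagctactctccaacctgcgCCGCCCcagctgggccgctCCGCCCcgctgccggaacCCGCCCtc
Atp2b1, chr10:98914392-98914641, plus strand: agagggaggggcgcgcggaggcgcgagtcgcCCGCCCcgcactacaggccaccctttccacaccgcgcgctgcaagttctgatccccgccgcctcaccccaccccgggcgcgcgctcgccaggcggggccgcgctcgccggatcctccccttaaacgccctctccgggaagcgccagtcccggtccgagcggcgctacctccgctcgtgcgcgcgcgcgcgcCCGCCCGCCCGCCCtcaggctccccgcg
Atp2b2, chr6:113891540-113891789, minus strand: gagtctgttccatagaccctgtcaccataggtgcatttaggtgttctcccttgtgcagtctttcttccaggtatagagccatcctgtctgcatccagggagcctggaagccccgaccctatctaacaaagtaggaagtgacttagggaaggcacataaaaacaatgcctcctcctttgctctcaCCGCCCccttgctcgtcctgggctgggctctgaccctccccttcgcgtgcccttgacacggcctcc
Atp2b2, chr6:113934682-113934931, minus strand: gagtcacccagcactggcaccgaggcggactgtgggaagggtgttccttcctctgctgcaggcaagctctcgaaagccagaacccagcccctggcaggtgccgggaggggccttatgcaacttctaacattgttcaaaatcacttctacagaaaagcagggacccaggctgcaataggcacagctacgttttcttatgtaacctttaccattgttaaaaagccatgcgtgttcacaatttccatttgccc
Atp2b2, chr6:114042081-114042330, minus strand: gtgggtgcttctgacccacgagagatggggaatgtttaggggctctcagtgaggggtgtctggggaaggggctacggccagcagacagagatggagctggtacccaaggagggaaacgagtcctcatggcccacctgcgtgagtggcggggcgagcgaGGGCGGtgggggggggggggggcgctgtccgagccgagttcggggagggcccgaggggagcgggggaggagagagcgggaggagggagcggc
The Orai1 window held 1 TTCNNNGAA, at positions -207 to -199 counted from the start, and 3 copies of GGGCGG. TTCNNNGAA was found in 7.02% of 32851 windows of this length, and among the 12 windows of the pathway it was found in that of Orai1 alone. Pthlh and the Atp2b1 window shown had 4 copies of GGGCGG each, a number reached by 4.09% of all windows, while 32.7% had at least 1. Some copies in that Atp2b1 window overlap one another. A second Atp2b1 window, not shown, had 3 copies at 80.8% GC. The 3 windows of Atp2b2 had 1, 0 and 1 copies. GC content was 70.8% for Orai1, 75.2% for Pthlh and 78.4% for Atp2b1, against a median of 52.4% over all windows, and 55.6%, 52% and 69.6% for Atp2b2 in the order shown. Genes that did not pass had such windows too: that of Stim1 had 8 copies at 78.4% GC, and that of Stim2 had 3 copies at 74.8% GC. A match of letters is a description and does not show that a factor binds there.

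Atp2b2, the pump that delivers calcium into milk, fell by 3.33 on the log2 scale in the KO glands, a 10.1-fold lower signal. Its single probe (A_51_P256384) gave log2 intensities of 12.78, 14.11, 12.62 and 13.62 on WT arrays 1 to 4. On KO arrays 1 to 3 the signals were 9.83, 11.99 and 8.04. All KO values lay below all WT values, and the KO glands differed far more among themselves than the WT glands, with array 3 lowest and array 2 nearest to the WT range. On KO array 4 the scanner software had marked the spot as uneven, and it was left out of the fit. With the marked spot kept its signal was 9.88, between those of the other KO arrays, and the difference was -3.35 (adjusted p = 0.0240). Mean signals were 13.28 ± 0.70 (SD, n = 4) in the WT glands and 9.95 ± 1.98 (SD, n = 3) in the KO glands (standard error of the difference 0.85, 95% confidence interval -5.32 to -1.34, adjusted p = 0.0387 from limma). The call was lost without WT array 2 (adjusted p = 0.101), WT array 3 (0.0687), WT array 4 (0.0738), KO array 1 (0.0983) or KO array 3 (0.0870, with a difference of -2.38), by the methods' t-test (0.101), with dim probes not filtered out (0.0629) and with the position on the slide as a block (0.111). Without KO array 2 the difference was -4.35 (adjusted p = 0.0240). Over all genes, arrays at the same position had deviations from the genotype means that correlated negatively. With KO array 4 left out, WT array 3 stood alone at its position in that fit for Atp2b2. Why the call was lost there was not tested.

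Atp2b1, the exporter found in most cell types, rose 2.29-fold. The brightest of its 3 probes gave log2 intensities of 10.45, 9.45, 9.96 and 10.01 on the WT arrays and 11.23, 10.77, 11.27 and 11.39 on the KO arrays. The lowest KO gland, array 2, was still above the highest WT gland, array 1. The means were 9.97 ± 0.41 and 11.16 ± 0.27 (SD, n = 4 each), a difference of 1.20 (standard error 0.22, 95% confidence interval 0.70 to 1.70, adjusted p = 0.0152 from limma). The other probes of the gene gave 1.19 and 1.09, with adjusted p-values of 0.0112 and 0.0183 over all probes, of which 14.5% passed. Without KO array 3 the adjusted p was 0.0506, with that array the 1 of 8 whose removal lost the call. With the position of an array on its slide as a block, it was 0.0752.

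The pumps that fill the ER and the Golgi gave no call. Atp2c2 (SPCA2), the secretory pathway pump that marks secretory epithelium, gave log2 intensities of 13.38, 14.56, 14.16 and 14.72 on the WT arrays and 14.06, 14.30, 13.99 and 13.78 on the KO arrays. The KO glands lay inside the WT range, and the difference of -0.17 (95% confidence interval -0.80 to 0.46, adjusted p = 0.688) was 1.13e-05 without WT array 4. Atp2c1 (SPCA1) had signals of 9.04 to 9.59 in the WT glands and 9.40 to 9.74 in the KO glands, a difference of 0.31 (95% confidence interval -0.01 to 0.64, adjusted p = 0.147), and 0.11 and 0.24 by its other probes. Its adjusted p was 0.0491 without WT array 1. Atp2a2 (SERCA2) had signals of 11.29, 11.24, 11.66 and 10.56 on the WT arrays and 10.79, 10.43, 10.89 and 10.33 on the KO arrays. Most KO glands were lower than most WT glands, but WT array 4 lay among the KO arrays, and the difference was -0.58 (standard error 0.24, 95% confidence interval -1.12 to -0.04, adjusted p = 0.117). It passed when the replicate number was fitted as a block (adjusted p = 0.0384) and without WT array 4 (0.0357), and its other probes gave -0.17 and -0.51.

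Of the entry genes, Orai1, the channel pore, fell by 0.89 on the log2 scale, 1.86-fold. Its log2 signals were 11.97, 12.57, 12.14 and 12.59 on the WT arrays and 11.57, 11.48, 11.25 and 11.39 on the KO arrays. The genotypes did not overlap, and the KO glands lay close together. Mean signals were 12.32 ± 0.31 and 11.42 ± 0.14 (SD, n = 4 each; standard error 0.16, 95% confidence interval -1.26 to -0.52, adjusted p = 0.0150 from limma). The adjusted p was 0.0505 without KO array 3 and 0.0710 with the position on the slide as a block. The ER sensors did not pass the test. Stim1 had signals of 10.20 to 10.54 in the WT glands and 10.47 to 10.74 in the KO glands, a difference of 0.18 (95% confidence interval -0.07 to 0.44, adjusted p = 0.272). Stim2 had signals of 11.73, 12.23, 11.67 and 12.33 on the WT arrays and 11.18, 12.22, 10.78 and 11.84 on the KO arrays, a difference of -0.49 (95% confidence interval -1.21 to 0.23, adjusted p = 0.296). As for Atp2b2, KO array 3 was lowest and KO array 2 highest in the KO group, and without KO array 3 the difference of Stim2 was -0.24. The interval of Stim1 leaves out a fall of the size seen in Orai1, and that of Stim2 does not.

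**Figure D2:**
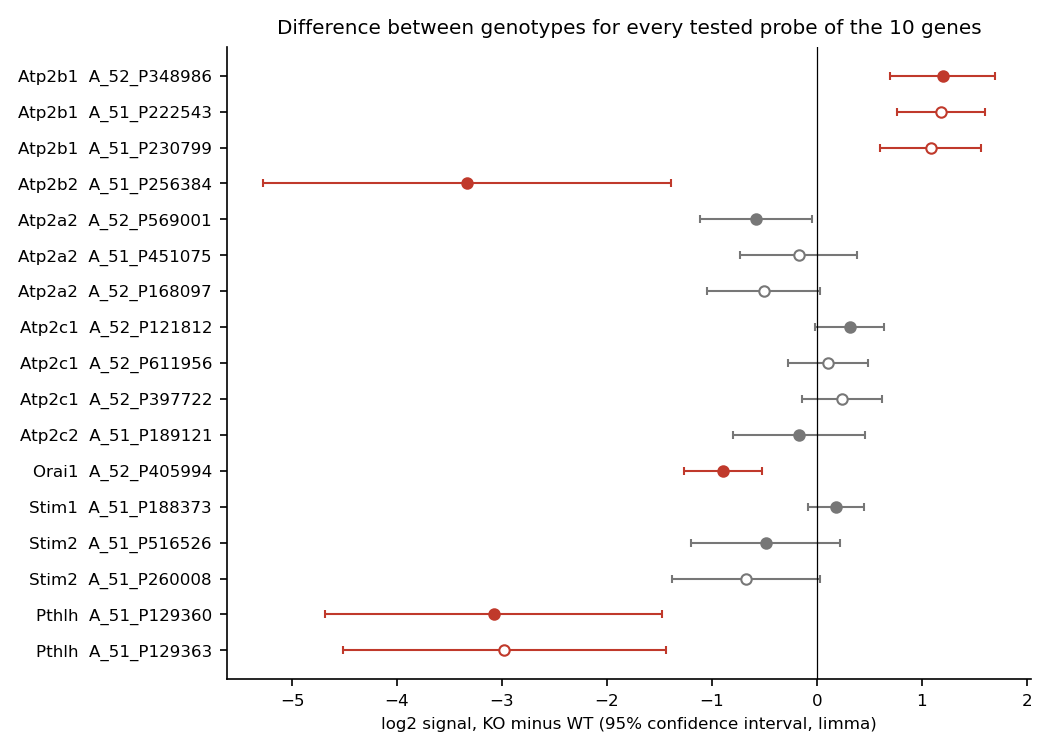
Difference of the mean log2 signal, KO minus WT (horizontal axis), for the 17 probes of the 9 genes tested, one row each, with bars for the 95% confidence interval from limma over all probes. Filled points are the probe that stands for its gene, open points its other probes, and red marks an adjusted p under 0.05. All 3 probes of Atp2b1 lie to the right of 0, the probes of Orai1, Pthlh and Atp2b2 lie to the left, and the intervals of Pthlh and Atp2b2 are the widest.

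Pthlh, the hormone gene, fell by 3.08 on the log2 scale, 8.45-fold, but not in every KO gland. Its brighter probe (A_51_P129360) gave log2 intensities of 9.83, 11.26, 10.63 and 11.27 on the WT arrays and 7.29, 6.76, 6.65 and 9.98 on the KO arrays. KO arrays 1 to 3 were below every WT array, whereas KO array 4 lay above WT array 1. The means were 10.75 ± 0.68 and 7.67 ± 1.56 (SD, n = 4 each; standard error 0.72, 95% confidence interval -4.72 to -1.44, adjusted p = 0.0277 from limma), and the other probe gave -2.98 with the same array apart. Without KO array 4 the difference was -3.85 (adjusted p = 0.0033). Without any 1 of WT arrays 2 to 4 or KO arrays 1 to 3 the call was lost (adjusted p from 0.0552 to 0.0776), as it was by the methods' t-test (0.0691) and with the position on the slide as a block (0.0752).

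Casr, the sensor upstream of PTHrP, could not be measured. Its single probe gave log2 intensities of 3.60, 3.44, 2.72 and 2.78 on the WT arrays and 3.34, 3.30, 3.08 and 4.05 on the KO arrays, and it was well above background on WT array 1 and KO array 4 only. No fold was computed.

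The genes whose pattern over the arrays was most like that of Atp2b2 were Acaca, the rate-limiting enzyme of fatty acid synthesis (r = 0.988), Klhl2 (0.984), Sowahb (0.982), the carbonic anhydrase gene Car2 (0.980) and St6galnac3 (0.978), over 7 arrays. Most like Pthlh over 8 arrays were the translation factor gene Eif2b5 (r = 0.994), Glyctk (0.990), Vac14 (0.990), Tmem63a (0.984) and Ddx1 (0.982). These values of Pearson's r are a description, were the highest among all genes tested, and contain the difference between the genotypes, which is shared with the slides. Of the 10, Sowahb, St6galnac3, Eif2b5, Glyctk and Ddx1 passed the test between genotypes, each as lower, and the lists had no gene in common.

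Around these 10 genes, 116 others that handle calcium were listed, of which 90 were tested. In the KO glands 7 were higher and 6 lower, or 14.4% against 16.5% of all genes, and their median difference was -0.0033. With the arrays scaled to the 75th percentile in place of quantiles, 5 were higher and 9 lower. The largest of the 13 differences was that of Tmem165, a Golgi transporter of calcium and manganese that is abundant in the lactating gland. Log2 intensities of Tmem165 were 14.22, 14.68, 14.01 and 14.69 on the WT arrays and 12.87, 13.82, 12.94 and 13.56 on the KO arrays. Every KO gland was below every WT gland, with a difference of -1.10 (standard error 0.25, adjusted p = 0.0268). By the methods' t-test the call was lost (adjusted p = 0.0616). Tmem165 was listed with the other pumps and their regulators and was the 1 gene of 3 tested there that passed. The 2 pumps tested there did not pass: Atp2a1 (SERCA1) differed by -0.05 (adjusted p = 0.921) and Atp2a3 (SERCA3) by 0.05 (adjusted p = 0.759).

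**Figure D3:**
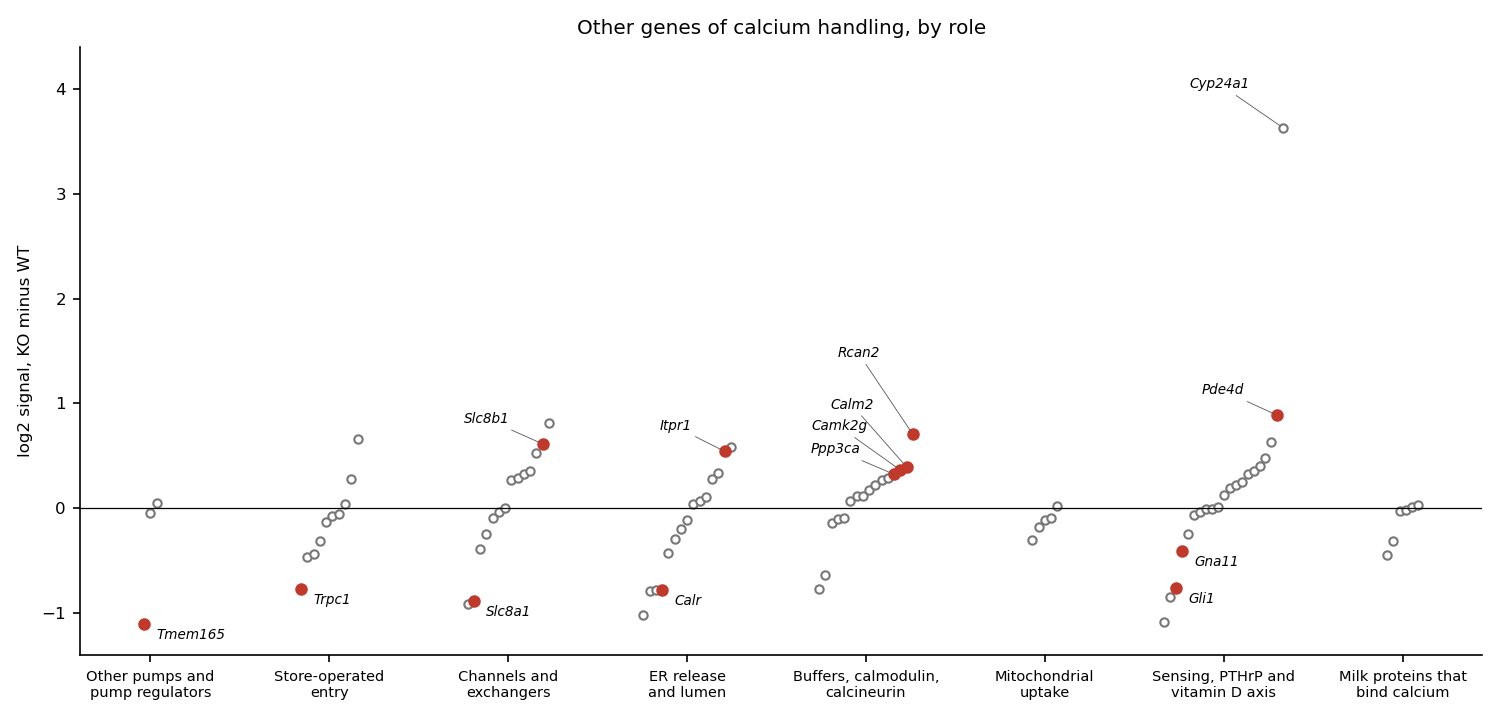
Difference of the mean log2 signal, KO minus WT (vertical axis), for the 90 other genes of calcium handling that were tested, grouped by role and ordered within each group. Filled points are the 13 genes with an adjusted p under 0.05, which are named, 7 above and 6 below 0. The open point at the top is Cyp24a1, at 3.63, which did not pass.

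Of 10 further entry genes, 1 passed, the channel gene Trpc1 (-0.77, adjusted p = 0.0296). Trpc1 was well above background on 1 of 4 KO arrays and Gli1, named below, on 3 of 4, so both entered the test, and the 6 lower genes, through the WT glands alone. Of 14 other channels and exchangers, the plasma membrane exchanger gene Slc8a1 was lower (-0.89, adjusted p = 0.0203) and the mitochondrial exchanger gene Slc8b1 higher (0.61, adjusted p = 0.0204). For Slc8a1 the probes disagreed, and their mean gave -0.08 (adjusted p = 0.729). Trpc1, Slc8a1 and the Hedgehog target Gli1 lay near background. With the normexp background correction the differences of Trpc1 (-0.25, adjusted p = 0.05001) and Gli1 (-0.21, adjusted p = 0.119) lost their calls, and that of Slc8a1 was -0.35 (adjusted p = 0.0349). In the ER, the release channel gene Itpr1 was higher (0.54, adjusted p = 0.0236) and calreticulin (Calr), the main calcium store protein of the lumen, was lower. Calr gave log2 intensities of 14.50, 14.81, 14.89 and 13.94 on the WT arrays and 13.70, 13.67, 13.87 and 13.79 on the KO arrays. The genotypes did not overlap, with WT array 4 just above the KO glands, and the difference was -0.78 (adjusted p = 0.0349). The ER chaperones Hspa5 and Hsp90b1, which also bind calcium, differed by -0.79 (adjusted p = 0.0815) and -0.78 (adjusted p = 0.0649), and both passed with the replicate number as a block (0.0320 and 0.0414), with the 75th percentile scaling (0.0471 and 0.0371) and without WT array 4 (0.0257 and 0.0200).

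Of 16 genes of the cytosol, 4 passed as higher and 0 as lower, where 7.53% and 8.96% of all genes did. The 4 were the calmodulin gene Calm2 (0.39, adjusted p = 0.0347), its kinase subunit Camk2g (0.36, adjusted p = 0.0315), the calcineurin subunit Ppp3ca (0.32, adjusted p = 0.0484) and the calcineurin regulator Rcan2 (0.70, adjusted p = 0.0275). With the 75th percentile scaling, Calm2 was at 0.23 (adjusted p = 0.104) and Ppp3ca at 0.23 (adjusted p = 0.102). Ppp3ca also lost its call with each array left out (adjusted p from 0.0527 to 0.124), without the filter (0.0566) and with probes without a gene kept (0.0563). Of the 8 fits with 1 array left out, Calm2 lost its call in 7, Camk2g in 6 and Rcan2 in 5. Calm2 also lost it when its probes were averaged (0.35, adjusted p = 0.0724). Rcan2 was at 0.43 when its probes were averaged (adjusted p = 0.182) and at 0.37 with normexp. Among 21 genes of calcium sensing, PTHrP signalling and vitamin D, Gna11, a G protein subunit coupled to the calcium-sensing receptor (-0.40, adjusted p = 0.0324), and Gli1 (-0.76, adjusted p = 0.0479) were lower, and the phosphodiesterase gene Pde4d was higher (0.89, adjusted p = 0.0260, or 0.59 with normexp). The vitamin D receptor gene Vdr differed by -0.24 (adjusted p = 0.514). Cyp24a1, the enzyme that breaks down active vitamin D, was chosen after its values were seen. It gave log2 intensities of 7.30, 4.83, 7.20 and 7.09 on the WT arrays and 9.99, 12.63, 11.47 and 6.84 on the KO arrays. Again KO arrays 1 to 3 stood apart from the WT glands and KO array 4 did not, and the difference of 3.63 (standard error 1.17, adjusted p = 0.0632) became 4.76 without KO array 4 (adjusted p = 0.0158).

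The milk proteins that carry calcium did not pass in any of 6 genes. The casein genes Csn1s2a, Csn1s1 and Csn2 differed by -0.02 (95% confidence interval -0.21 to 0.18), 0.03 (-0.17 to 0.24) and 0.01 (-0.19 to 0.21), with signs that changed with the processing, and log2 signals between 17.70 and 18.15 on all 8 arrays. Quantile normalization gives the brightest probes nearly the same values on every array, so these narrow intervals are in part set by it. Their standard errors were 0.087, 0.091 and 0.087, and 0.14, 0.15 and 0.13 with the 75th percentile scaling. The other 3, given after their values were seen, had wider intervals. Csn3 differed by -0.03 (-0.54 to 0.48), the lactose synthase subunit gene Lalba by -0.45 (-0.97 to 0.08) and Csn1s2b by -0.31 (-1.50 to 0.88).

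Which of the called genes stayed called depended on single dams. Of the 13 genes of the wider list, 0 were called without WT array 2 (adjusted p from 0.0538 to 0.124), without KO array 1 (0.0505 to 0.0948) or without KO array 3 (0.0517 to 0.124). In those fits 5.42%, 5.31% and 3.64% of all genes were called. Tmem165 also lost its call without WT array 4 (adjusted p = 0.0529), and Calr without WT array 3 (0.0799), KO array 2 (0.0820) or KO array 4 (0.0528). All 13 kept their direction in each alternative in which they were tested.

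**Figure D4:**
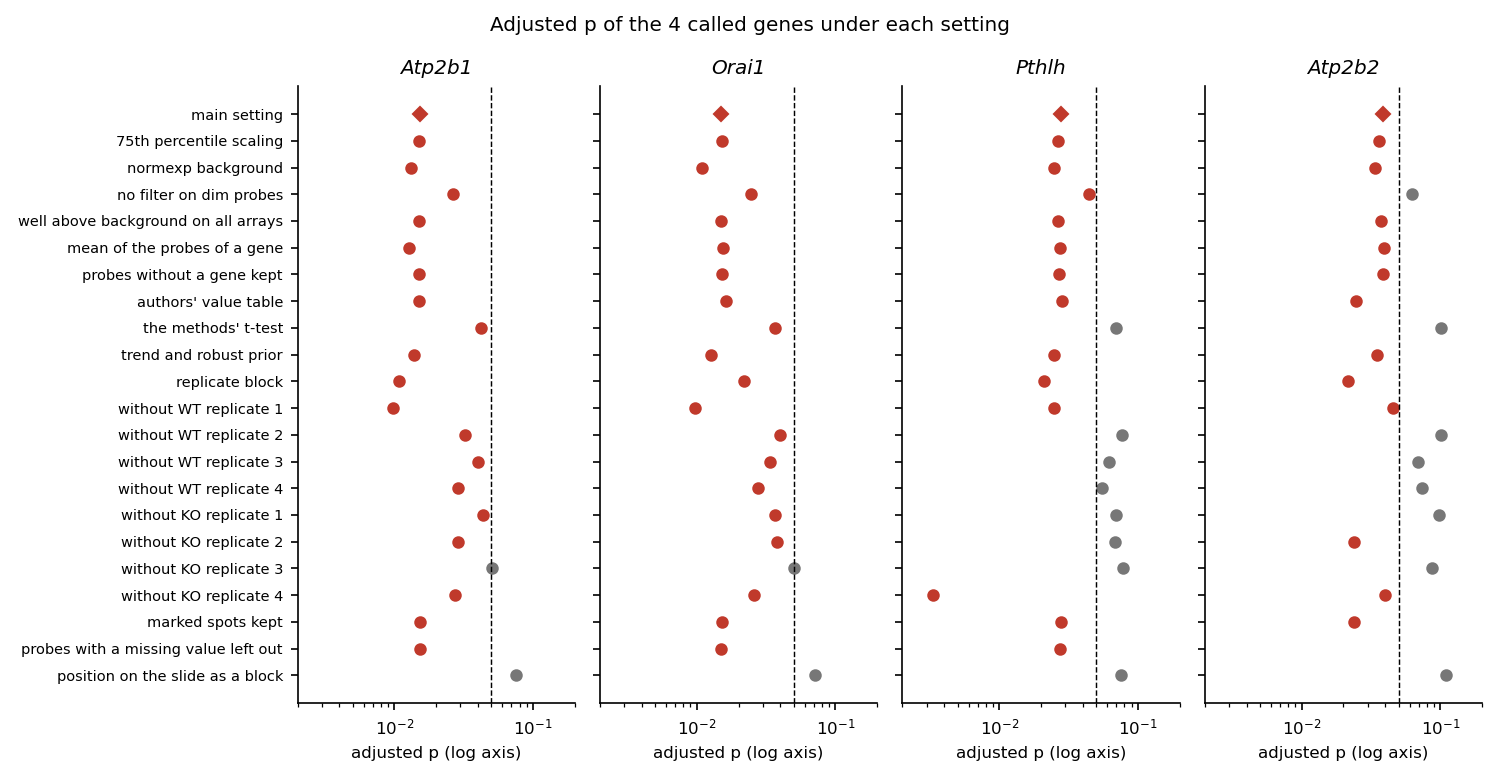
Adjusted p (horizontal log axis) of Atp2b1, Orai1, Pthlh and Atp2b2 in the reported fit (diamond) and in each alternative (one row each), red where it is under 0.05 (dashed line) and grey where it is not. Atp2b1 and Orai1 crossed the line without KO array 3 and with the position on the slide as a block, and Pthlh and Atp2b2 crossed it in 8 rows each. Atp2b2 has no point where probes with a missing value were left out.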

How the data were processed

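The sample labels gave the genotype and the replicate number of the 8 one-colour Agilent arrays, 1 for each of 4 WT and 4 KO dams. The intensity values the authors deposited were processed signals of Agilent Feature Extraction 10.7 (per the labels), background-subtracted within each array and not normalized between arrays. The log2 value table the authors deposited was quantile-normalized. Its columns correlated with the log2 intensities of the same arrays at r above 0.99, had a median of 6.32 and served as an alternative. The array design named mouse build mm9 and the gene table was of GRCm38.p6, so gene coordinates are not given.

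After removal of control spots, intensities were log2-transformed and quantile-normalized (limma 3.58.1, R 4.3.3). Outlier spots marked by the scanner software (64 to 100 per array) were dropped, and the rest averaged into 41174 probes. Accessions matched 27479 probes to 18749 symbols. Kept were 27735 probes that were well above background throughout 1 or both genotypes, that is, on 4 of 4 arrays. The probe of highest mean signal stood for its gene, and genes with at least 2 values per genotype were tested (14166 genes, 50 of them with a missing value). P-values were adjusted by the Benjamini-Hochberg method and genes called at an adjusted p under 0.05. The fit was tested on simulated data.

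The 10 genes and the lists were chosen with earlier results of these data known, and 1 gene of the calcium list is not reported here and is left out of its counts. Named were all 10 genes, the called genes of the calcium list, and those needed among the 3 brightest genes not called of each role. The normexp alternative (offset 50) used median signals, since mean signals were not in the columns read. Deviations from the genotype means correlated at a mean r of 0.242 (0.164 to 0.304) between same-numbered WT and KO arrays and at a mean of -0.079 (-0.322 to 0.340) between different numbers, where arrays 1 and 3, and 2 and 4, also correlated. Each same-numbered pair was over 0.1, but so were some pairs of different numbers (0.340 for WT array 1 with KO array 3). The reported fit did not pair the dams. The fit with the replicate number as a block was an alternative, given where it changes the call of a gene followed. The methods do not say what a number shares. Other alternatives were scaling to the 75th percentile, no filter, a filter on all 8 arrays, the mean of a gene's probes, probes without a gene, the methods' t-test, a trended robust prior and leaving out each array. Keeping marked spots, leaving out probes with a missing value and the position on the slide as a block were added after seeing the data.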

Additional observations from a re-analysis of the deposited data

Results flagged for a closer look

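For the 30 genes followed, it was asked whether 1 dam of a genotype lay apart from its group, by the gap to the nearest dam over the whole range. This was so in 2 of 59 groups, and chance flags about 1 in 20. Cyp24a1 was at a log2 signal of 4.83 on WT array 2 and at 7.09 to 7.30 on the other WT arrays. Atp2a3 was at 8.87 on KO array 4 and at 8.63 to 8.65 on the other KO arrays. Without that array its difference between the genotypes was -0.0081.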

How the results depend on the processing

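Among the 10 genes the reported fit called 1 higher and 3 lower, and of the wider calcium list 7 higher and 6 lower. The methods' t-test called 1 of the 10 genes and 2 of the wider list lower, and the replicate number as a block called 10 of the list lower. With the block, 8 of the 13 genes of the list called in the reported fit stayed called. Trpc1 (adjusted p = 0.0538), Camk2g (0.0501), Calm2 (0.0578), Gli1 (0.0594) and Ppp3ca (0.0786) lost their calls. Among the 30 genes followed, the block otherwise changed only the calls of Atp2a2, Hspa5 and Hsp90b1, given above. The other genes of the list that gained a call with it were not followed one by one. With the position on the slide as a block, 0 genes were called in either direction in both sets, and 0.967% of all genes. Each position held 1 array of each genotype. Over all genes, the arrays paired in this way had deviations from the genotype means that correlated negatively (r from -0.317 to -0.173). The loss of calls cannot show whether position plays a part in the differences, and its cause was not tested. Leaving out 1 array at a time, 0 to 2 of the 10 genes were higher and 0 to 3 lower, and of the list 0 to 7 higher and 0 to 9 lower. Without KO array 3 all 4 counts were 0. For genes near 0 the sign changed: Csn1s1 was at -0.071 with the 75th percentile scaling and -0.013 with normexp, Csn2 at -0.14 and -0.016, and Csn1s2a at 0.0040 in the authors' table. With 1 array left out the differences ran from -0.039 to 0.014 for Csn1s2a, from -0.0095 to 0.058 for Csn1s1, from -0.016 to 0.036 for Csn2, from -0.0081 to 0.093 for Atp2a3 and from -0.45 to 1.13e-05 for Atp2c2. The cause of these changes was not tested. Results with 4 arrays per genotype depend on single dams, and a gene near background, such as Casr, has no measured difference.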
